A study of Mus musculus with 33 samples.

Results

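Nppa encodes atrial natriuretic peptide, and the 21 fetal ventricular cardiomyocytes profiled here were divided by whether their library held a read of it. Cells were to be ranked by CPM of Nppa, its counts scaled to the library total, with the 7 highest set against the 7 lowest. Only 7 of the 21 cells had any Nppa read, and the other 14 were tied at 0 counts, so no set of 7 lowest cells could be singled out. The 7 cells with a read, called Nppa-read cells, were therefore compared with all 14 cells at 0. The cells were chosen by their own Nppa counts, so those values are a description and carry no test.

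The 21 cells were single ventricular cardiomyocytes of embryonic day 14.5 (E14.5) mice, out of 33 cells in the series, the other 12 being from postnatal day 19 (P19). All carried the mAG-hGem transgene, which tags a piece of the replication inhibitor geminin with a green fluorophore and so lights up cells in S, G2 and M phase. At E14.5 there were 10 reporter positive and 11 reporter negative cells by flow sorting, with no drug treatment and no other allele named by the labels. Cells had been kept when a PCR for Tnnt2 was positive and one for Pdgfrb negative, so reads of those genes do not test identity. Each sample was 1 cell and no animal or litter was named, so each set counted as 1 sample, no test was run, and intervals cover counting error only. Cells are numbered within their reporter group in the order of their accessions, and all numbered cells are from E14.5.

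In the developing ventricle, cardiomyocytes of the inner trabecular layer carry Nppa and its neighbour Nppb, the gap junction gene Gja5, Bmp10 and Irx3, whereas those of the outer compact wall divide more and carry Hey2 and Mycn. Endocardial Notch and neuregulin signals acting on ErbB receptors drive trabeculation. Nppa is a secreted hormone gene that is active in fetal ventricle and largely silent in the healthy adult ventricle, and its promoter is a classical target of GATA4, NKX2-5 and T-box factors.

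Nppa (ENSMUSG00000041616.9) lies on the plus strand of chromosome 4 of GRCm38, from 148000722 to 148002079, and its annotated transcript Nppa-201 has 3 exons. It overlaps the antisense gene Gm13054 (148001091 to 148004014, minus strand). Whether counting used strand was not given in the sources used here, so reads of this pair cannot be told apart. The 250 bases before the Nppa start are shown because this promoter is where the factors that mark chamber myocardium are known to act. The sequence is from RefSeq on build GRCm38.p6, chr4:148000472-148000721, plus strand.

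Nppa promoter: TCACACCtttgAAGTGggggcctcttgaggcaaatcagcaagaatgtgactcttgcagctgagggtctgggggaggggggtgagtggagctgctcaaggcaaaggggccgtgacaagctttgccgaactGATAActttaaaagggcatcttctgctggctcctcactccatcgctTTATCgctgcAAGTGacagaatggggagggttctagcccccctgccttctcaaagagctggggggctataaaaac

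Capitals mark matches on either strand, with no overlap among them. The T-box motif searched was TCACACC. The NKX2-5 motif was AAGTG and the GATA motif was GATAA, here also present as TTATC on the other strand. Of 27025 promoters of this length, 1 a gene, 3.31% held the T-box letters, 40.8% the NKX2-5 letters, 23.02% the GATA letters and 0.407% all of them. Of the 14 trabecular genes listed here, 9 had a promoter in the table: 5 held the NKX2-5 letters (Gja5, Irx3, Cited1, Irx2 and Cpne5), 3 the GATA letters (Nppb, Bmp10 and Smpx) and 0 the T-box letters. Of 12 compact genes 8 had a promoter, and 1, Prdm16, held the NKX2-5 letters. A match is a description of letters and not a site of binding.

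Nppa was low and uneven. Positive cell 2 held 1764 counts (149 CPM), positive cell 1 held 2305 (147 CPM), positive cell 7 held 1094 (40.0 CPM) and positive cell 8 held 853 (14.2 CPM). Positive cell 9 held 175 counts (4.18 CPM), negative cell 9 held 87 (2.36 CPM) and negative cell 4 held 36 (1.804 CPM, exact Poisson interval 1.26 to 2.50). Positive cells 1 and 2 thus stood apart, and the last 3 cells lay within a few CPM of the cells at 0. Just inside the limit was negative cell 4, and just outside were 14 cells at 0, for which 3 counts correspond to 0.0545 to 0.384 CPM. A name such as Nppa-high is hence apt for a few of these cells at most, and the text calls the sets by their rule.

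**Figure D1:**
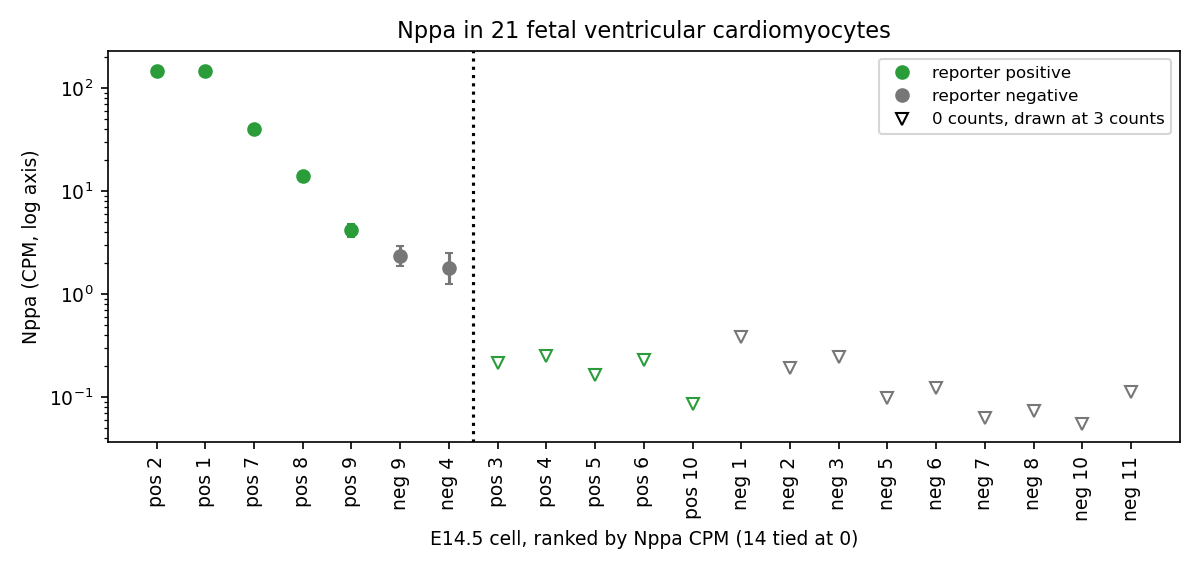
Nppa level of each of the 21 E14.5 cells in CPM on a log axis, coloured by reporter group, with 95% Poisson intervals; open triangles are the 14 cells at 0, drawn at the level of 3 counts. The 2 highest cells stand at 147 and 149 CPM and the other 5 cells with a read between 1.804 and 40.0 CPM.

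By reporter group, Nppa had reads in 5 of 10 positive cells (50%) and in 2 of 11 of the negative ones (18.2%). These intervals overlap. The 5 highest cells were all reporter positive, and the summed level was 24.8 CPM over the positive cells but 0.386 CPM over the negative ones. The sets therefore differed in makeup, with 5 positive and 2 negative Nppa-read cells against 5 positive and 9 negative cells at 0, and the gene lists below are also given within reporter groups. None of the 12 P19 cells had an Nppa read, where 3 counts over their summed depth correspond to 0.00904 CPM.

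Libraries of Nppa-read cells held more genes. Total counts were 11.9 to 60.2 M (median 27.4) in Nppa-read cells and 7.803 to 55.0 M (median 21.5) in cells at 0. Genes with a read numbered 8329 to 11246 (median 9086) against 5924 to 9321 (median 8121.5). The 2 cells with most Nppa, positive cells 1 and 2, also held the most genes of the 21, at 11246 and 10443, from totals of 15.7 and 11.9 M. The part of gene detection in the differences below was not tested. Titles numbered 1 to 10 covered 11 cells, 3 with Nppa, and titles 21 to 30 covered 10 cells, 4 with Nppa; the labels do not say whether these ranges were separate runs.

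Each cell of both sets held reads of the cardiomyocyte and of the ventricular markers as a sum, but the ventricular marker Hey2 was not read in every cell. The 9 cardiomyocyte markers include Tnnt2, by which cells had been kept, so their sum is not a test of identity. That sum was 14583 to 29161 CPM in Nppa-read cells and 8820 to 23817 CPM in cells at 0. The 4 ventricular markers summed to 4786 to 15852 CPM against 2204 to 13406 CPM. The 8 atrial markers summed to 483 to 2704 CPM in Nppa-read cells and 52.2 to 2289 CPM in cells at 0, with Sln and Kcna5 at 0 in all 21 cells. The 4 conduction markers summed to at most 0.0501 CPM in any Nppa-read cell and reached 26.7 CPM in negative cell 6, with Hcn4 and Shox2 at 0 in all 21 cells. The part of atrial transcripts in the differences below was not tested. The 7 fibroblast markers summed to at most 16.0 CPM in Nppa-read cells, but to 50900 CPM in negative cell 5, a cell at 0 of Nppa that stands apart from the other cells at 0, none of which held more than 7.41 CPM. Of 6 endothelial and endocardial markers 2 were at 0 in Nppa-read cells and 1 in cells at 0. Their sum reached 174 CPM in negative cell 4, all of it from Tek, and 22.6 CPM in negative cell 6.

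Over the other genes, the sets did not separate. Levels were compared as the log2 ratio of summed CPM, Nppa-read over cells at 0, for the 10754 genes with at least 1 CPM over all 21 cells. Of these 2071 (19.3%) were at least 2-fold higher in Nppa-read cells and 2787 (25.9%) at least 2-fold lower, 45.2% in all, and the median ratio was -0.09. No gene (0%) was higher in every Nppa-read cell than in every cell at 0, and none (0%) was lower in every one. With each cell left out in turn, 869 genes (8.08%) kept a 2-fold higher and 1283 (11.9%) a 2-fold lower level throughout. The balance of the counts followed the scale: with the mean of log2(CPM + 1) per cell it was 2894 higher and 396 lower, with a median of 0.46, and with DESeq2 size factors 1585 higher and 3462 lower, with a median of -0.41.

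Many of these differences were not shared between reporter groups. Among positive cells alone (5 against 5), 3148 of 10074 genes (31.2%) were at least 2-fold higher and 2332 (23.1%) at least 2-fold lower, and the groups did not overlap for 92 higher (0.913%) and 20 lower (0.199%). Among negative cells alone (2 against 9) the numbers were 1980 (19.3%) and 3783 (36.8%) of 10269, without overlap for 221 (2.15%) and 16 (0.156%). The median ratio over all genes was 0.21 among positive and -0.31 among negative cells, and list medians within reporter groups are to be read against these. List counts within reporter groups are likewise to be read against the shares of all genes. These were 31.2% higher and 23.1% lower among positive cells, and 19.3% and 36.8% among negative cells. Of 3403 genes at least 2-fold apart over all cells and measured in both reporter groups, 2292 (67.4%) had the same direction in both and 1241 (36.5%) were 2-fold apart that way in both. These genes were picked by their difference over the same cells, which favours a shared direction, so the shares are a description only.

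Trabecular genes did not move as a group with Nppa. Of 14 listed genes 12 were measured. Of these, 2 were at least 2-fold higher (Nppb and Irx3) and 4 at least 2-fold lower (Etv1, Cdkn1c, Tbx5 and Cpne5). Over all genes the shares were 19.3% and 25.9%. The median log2 ratio of the list was 0.17. That median was -0.21 without positive cell 7 and 0.54 without positive cell 8. Among positive cells 5 of the 11 that could be measured were at least 2-fold higher and 1 lower (median 0.36), and among negative cells 2 of 12 were higher and 6 lower (median -1.06).

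Nppb, which encodes brain natriuretic peptide, lies just upstream of Nppa on chromosome 4 (147985788 to 147987205, plus strand). It had reads in all 7 Nppa-read cells, at 362 CPM in positive cell 2, 20.4 in positive cell 1, 1.35 in positive cell 7, 8.999 in positive cell 8, 31.8 in positive cell 9, 0.0544 in negative cell 9 and 66.6 CPM in negative cell 4. The 14 cells at 0 of Nppa ran from 0 to 108 CPM with a median of 0.0890 CPM, and 8 of them had a read. Most Nppa-read cells thus lay above the middle of the other cells, but the ranges overlapped. Summed levels were 36.8 and 6.30 CPM, a log2 ratio of 2.55 (counting interval 2.48 to 2.62), with 1.49 without positive cell 2 and 4.51 without negative cell 2. The ratio was 2.97 among positive and 1.82 among negative cells.

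Irx3, a homeobox gene of the trabecular and Purkinje lineage, showed the same kind of difference. It stood at 55.3, 18.9, 53.5, 0.0332 and 206 CPM in positive cells 2, 1, 7, 8 and 9, and at 1.52 and 47.2 CPM in negative cells 9 and 4. Cells at 0 of Nppa ran from 0 to 63.8 CPM with a median of 0.585 CPM and a read in 7 of 14. Positive cell 8 lay with the low cells, so the sets overlapped. The log2 ratio of the sums (56.2 and 5.19 CPM) was 3.44, from 1.94 to 4.50 as each cell was left out, and it was 4.24 among positive and 1.62 among negative cells.

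The defining trabecular genes gave little else. Bmp10, a growth factor of trabecular myocardium, was at 0 in all 21 cells. Gja5, which encodes connexin 40, had a read in 3 Nppa-read and 3 other cells and reached 1.53 CPM, in positive cell 7. Cited1, a transcriptional coregulator, was at 37.8 to 673 CPM (median 216) in Nppa-read cells and at 0 to 414 CPM (median 110) in the others, a log2 ratio of 0.94 that was -0.15 among negative cells. Irx1 and Irx2 each had reads in 3 Nppa-read cells, with log2 ratios of 0.14 (-5.39 without positive cell 7) and 0.19 (-0.45 without negative cell 4), and Smpx, a small muscle protein gene, was at 4084 against 2988 CPM (0.45).

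Several listed genes stood lower in Nppa-read cells. Cdkn1c, the cell cycle inhibitor p57, was at 125 to 630 CPM (median 212) in Nppa-read cells and at 19.1 to 3228 CPM (median 426) in cells at 0, a log2 ratio of -1.49. Its ratio was -1.25 among positive and -0.96 among negative cells, but 0.30 among cells with titles 1 to 10. Tbx5, a T-box factor of atria and left ventricle, was at 6.46 against 27.3 CPM (-2.08), and its level in Nppa-read cells peaked in positive cell 1 at 48.0 CPM. With the mean of log2(CPM + 1) per cell, Tbx5 was at -0.08, where the median of all genes was 0.46. Etv1, a transcription factor of fast-conducting myocardium, was at -1.22 over all cells but at 1.05 among positive cells. Cpne5 (-6.72) had up to 222 CPM in a cell at 0 and no more than 0.890 CPM in any Nppa-read cell. Kcne1, a potassium channel subunit gene, was at 62.1 against 99.6 CPM (-0.68).

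Compact wall genes were not lower in Nppa-read cells as a group. All 12 were measured, with 1 at least 2-fold higher (Fgfr2) and 1 lower (Fgfr1), beside 19.3% and 25.9% of all genes. The list median was -0.05, from -0.47 without negative cell 9 to -0.01. Among positive cells 3 were higher and 3 lower (median -0.01), and among negative cells 1 of 11 was higher and 3 lower (median -0.37).

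Hey2, the Notch-related repressor that marks the compact wall, was at 306, 329, 318, 331 and 0.765 CPM in positive cells 2, 1, 7, 8 and 9, and at 53.0 and 208 CPM in negative cells 9 and 4. Cells at 0 of Nppa ran from 0 to 386 CPM with a median of 157 CPM, so the 4 cells with most Nppa also held Hey2 near the top of its range. Positive cell 9, with least Hey2 of the Nppa-read cells, held the most Irx3 and Cited1 among them. The log2 ratio was 0.33, and it was -0.08 among positive and -0.28 among negative cells. Mycn, a driver of compact wall growth, was at 290, 217, 235, 227 and 70.0 CPM in the same positive cells and at 7.47 and 215 CPM in the negative ones, against 0 to 469 CPM (median 147), a log2 ratio of 0.03.

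Other compact members were spread widely in both sets. Tbx20 (0.16), Prdm16 (0.50), Ccnd1 (-0.02), Ccnd2 (-0.60), Tead1 (-0.07), Ctnnb1 (-0.57), Bmpr1a (-0.53) and Rxra (-0.75) all had log2 ratios within 2-fold. Fgfr2, a fibroblast growth factor receptor gene, had 103 CPM in positive cell 8 and 13.2 CPM in positive cell 1, and its ratio of 5.81 was 1.47 with positive cell 8 left out. Fgfr1 was at 1.82 against 13.3 CPM (-2.87), and lower in both reporter groups.

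**Figure D2:**
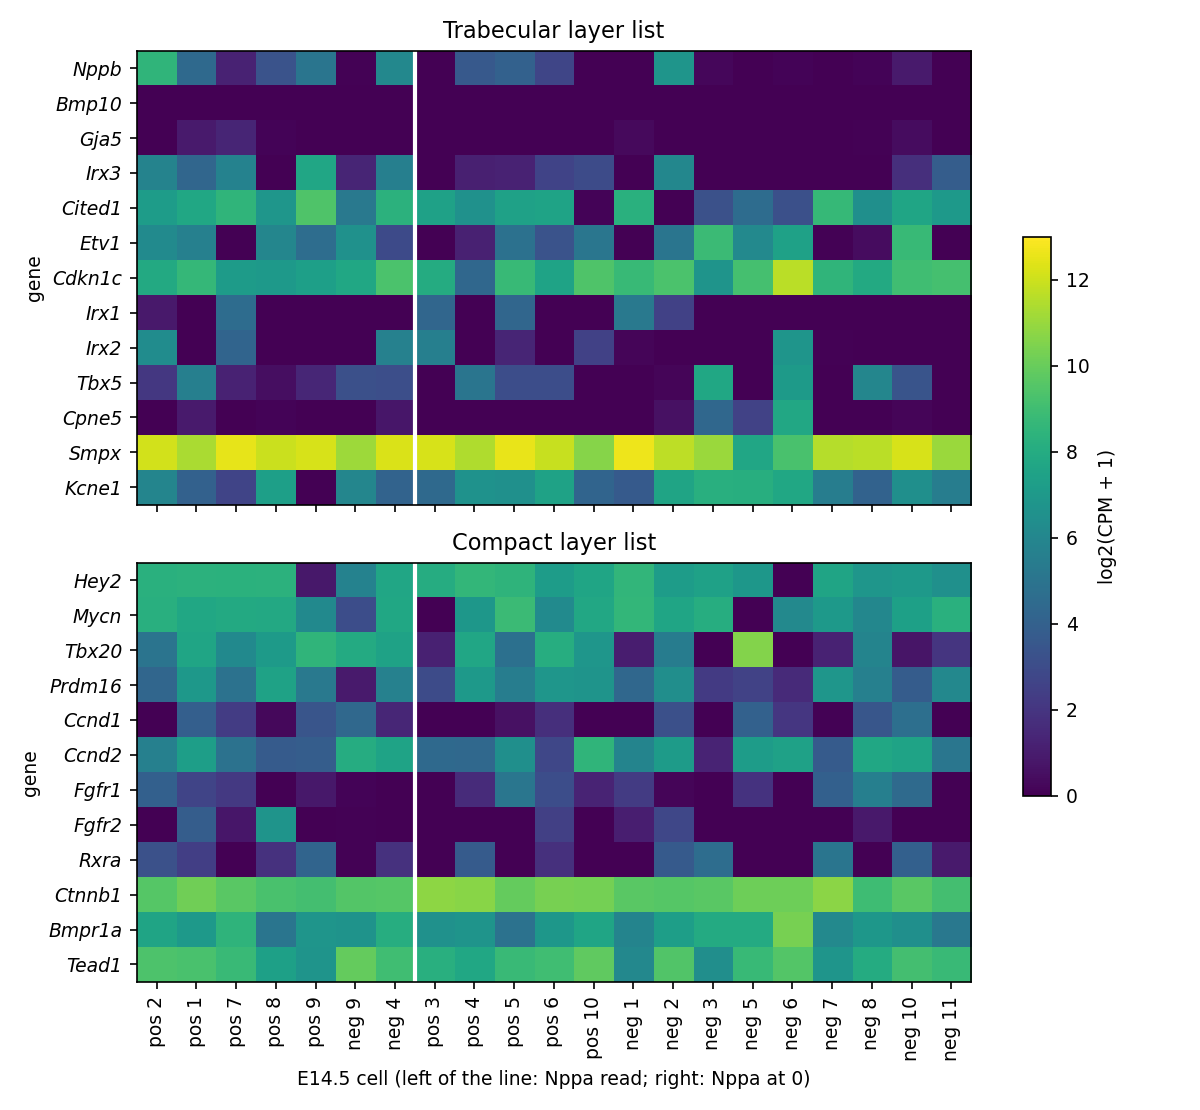
Level of 13 of the listed trabecular genes (upper panel) and 12 compact layer genes (lower panel) in each E14.5 cell, as log2(CPM + 1) by colour. Nppa-read cells stand left of the white line in the order of their Nppa, and cells at 0 right of it; Nppb and Irx3 are brighter in most cells on the left, while Hey2 and Mycn are bright on both sides.

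**Figure D3:**
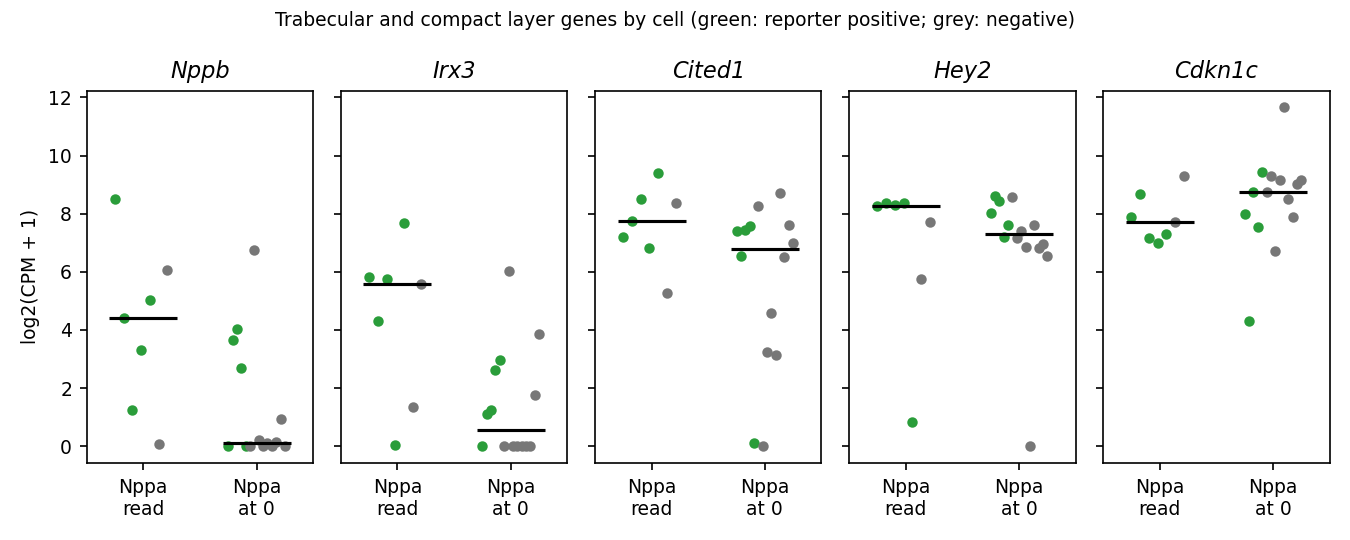
Level of Nppb, Irx3, Cited1, Hey2 and Cdkn1c in each cell as log2(CPM + 1), for cells with an Nppa read and cells at 0; points are cells (green reporter positive, grey negative) and the line is the median. The 2 sets overlap for each gene, with Nppb and Irx3 at or near 0 in most cells on the right but also in 1 Nppa-read cell each.

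Among the signalling genes of trabeculation, 17 of 22 were measured, with 2 at least 2-fold higher and 7 lower, beside 19.3% and 25.9% of all genes. Their median of -0.91 was -0.11 without negative cell 5, the cell with fibroblast transcripts. It was -0.22 among positive cells (2 higher and 3 lower of 14) and -0.21 among negative cells (3 higher and 8 lower of 18). Erbb4, the neuregulin receptor of cardiomyocytes, was at 654 against 677 CPM (-0.05), and its partner Erbb2 at 1.78 against 0.834 CPM (1.10). The receptor Notch2 was at 25.7 against 74.9 CPM (-1.54), Mib1, which activates Notch ligands, at 45.1 against 95.1 CPM (-1.08), and Adamts1, a protease of the cardiac jelly, at 310 against 388 CPM (-0.32). Has2, which makes hyaluronan, had 0 counts in every Nppa-read cell and up to 186 CPM among 2 other cells. Nrg1, Dll4 and Jag2 were below the level for measurement.

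Genes that make, process or receive natriuretic peptides were measured in small number. Of 12, besides Nppa itself, 6 were measured, with a median of -0.10. Nppb and the clearance receptor gene Npr3 were at least 2-fold higher and Corin lower, beside 19.3% and 25.9% of all genes. Among positive cells 3 of 6 were higher and 1 lower (median 1.56), and among negative cells 2 of 7 were higher and 3 lower (median 0.13). Corin, the protease that cleaves the Nppa product, had reads in all 7 Nppa-read cells (0.462 to 195 CPM, median 33.5) and in 9 of 14 others (0 to 749 CPM). Its log2 ratio of -1.33 was 0.66 without negative cell 10 and 2.85 among positive cells, so its direction rested on that cell. Npr3 held 13.8 CPM in negative cell 9, and its ratio of 3.46 was -1.13 without that cell. Prkg1, the cyclic GMP dependent kinase, was at 246 against 268 CPM (-0.12) and Ide, a peptide-degrading enzyme gene, at 117 against 124 CPM (-0.08). Npr1, which encodes the receptor for the peptide, had a read in 3 Nppa-read cells and 0 of the others and stayed below 1 CPM in each.

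Of 25 transcription regulators tied to natriuretic and chamber genes 21 were measured, 5 at least 2-fold higher and 4 lower, shares near the 19.3% and 25.9% of all genes, with a median of 0.16. Among positive cells 6 of 22 were higher and 3 lower (median 0.50), and among negative cells 4 of 21 were higher and 7 lower (median -0.22). Gata4 was at 11.04 to 105 CPM (median 58.0) in Nppa-read cells and 0 to 90.3 CPM (median 8.39) in the others, a log2 ratio of 1.49 with each reporter group on the same side (0.86 and 2.11). Hand2, a chamber factor of the right ventricle, was at 1.96 and Nkx2-5 at 0.83 (6.34 against 3.56 CPM), again on the same side in both reporter groups. Mef2d was at 4.57, with 66.1 CPM in negative cell 9, and the histone deacetylase gene Hdac5 at 1.35. Irx5 was at 3.45, mostly from positive cells 2 and 8 at 70.2 and 86.5 CPM, and at 1.81 without the latter. Rest, a repressor of fetal genes, was at -3.71 and Myocd, the coactivator myocardin, at -1.61, both lower in each reporter group. Rest was however at 1.84 among cells with titles 1 to 10. With the mean of log2(CPM + 1) per cell it was at -0.08, where the median of all genes was 0.46. Gata6 (-0.62), Mef2a (-0.14) and Mef2c (0.02) lay within 2-fold.

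Atrial genes had medians of opposite sign in the reporter groups, as did all genes (0.21 among positive and -0.31 among negative cells). Of 17 listed 12 were measured, 3 at least 2-fold higher and 4 lower, beside 19.3% and 25.9% of all genes. The list median was -0.35 and ran from -0.88 to 0.24 as cells were left out. Among positive cells 7 of 12 were higher and 1 lower, with a median of 1.28, beside 31.2% and 23.1% of all genes. Among negative cells 4 were higher and 5 lower, with a median of -0.42, beside 19.3% and 36.8% of all genes. The difference between reporter groups was not tested. Dkk3 (2.12) and Nr2f1 (10.19) were among the higher ones, the latter from positive cell 1 and negative cell 4 only, and Fam189a2 (-2.82) among the lower. Myl7, the atrial light chain gene, was at 44.8 to 733 CPM against 3.50 to 871 CPM (1.03), Myl4 was at 816 against 561 CPM (0.54) and Pam, an abundant atrial enzyme gene, at 808 against 1479 CPM (-0.87).

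Of 10 ventricular genes 1 was at least 2-fold higher (Myh7) and 1 lower (Kcnd2, -2.41), beside 19.3% and 25.9% of all genes. The list median was 0.38. Among positive cells 4 of 9 were higher and 1 lower (median 0.76), and among negative cells 2 were higher and 1 lower (median -0.04). Myh7, the fetal ventricular myosin heavy chain gene, was at 128, 198, 264, 355 and 507 CPM in positive cells 2, 1, 7, 8 and 9 and at 299 and 179 CPM in negative cells 9 and 4. Cells at 0 of Nppa ran from 0.732 to 237 CPM with a median of 56.7 CPM. Every Nppa-read cell was above that median, and the upper cells at 0 overlapped them. The log2 ratio was 1.57, from 1.36 to 1.78 as each cell was left out, 1.68 among positive and 1.24 among negative cells, and 1.25 with DESeq2 size factors. Myl2, the ventricular light chain gene, was at 3733 to 11350 CPM (median 7551) against 1633 to 9011 CPM (median 3548), a ratio of 0.94.

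Over all cells most contractile genes stood within 2-fold. In the adult sarcomere list 1 of 29 measured members was at least 2-fold higher (Mb, 1.56) and 1 lower (Ckmt2, -1.28). Over all genes the shares were 19.3% and 25.9%. The list median was 0.20, or -0.12 with DESeq2 size factors. Among positive cells 11 of 29 were at least 2-fold higher and 0 lower (median 0.68), and among negative cells 1 was higher and 2 lower (median 0.28). Of all genes, 31.2% were higher and 23.1% lower among positive cells, and 19.3% and 36.8% among negative cells. Mb, myoglobin, was at -0.19 without positive cell 8, and Ckmt2, mitochondrial creatine kinase, at 0.77 without negative cell 10, so neither direction was kept. Actc1, the cardiac actin gene, was at 10358 against 6941 CPM (0.58). Among 18 fetal programme genes 5 stood at least 2-fold higher and 3 lower, beside 19.3% and 25.9% of all genes, with a list median of 0.45. That median was 0.78 among positive cells (8 higher, 2 lower) and 0.41 among negative cells (7 higher, 6 lower). Igf2bp3, which encodes a fetal RNA binding protein, was at 111 to 708 CPM (median 269) in Nppa-read cells and 0 to 268 CPM (median 98.2) in the others, a ratio of 1.67 (1.56 and 1.07 within reporter groups). Lin28b, a block to let-7 maturation, was at -3.56 but at 1.55 among positive cells. None of 39 oxidative phosphorylation genes was 2-fold apart over all cells (median 0.21), beside 45.2% of all genes. Among positive cells 10 were higher, a share below the 31.2% of all genes, and 0 lower (median 0.51). Among negative cells 0 were higher and 1 lower (median 0.03).

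**Figure D4:**
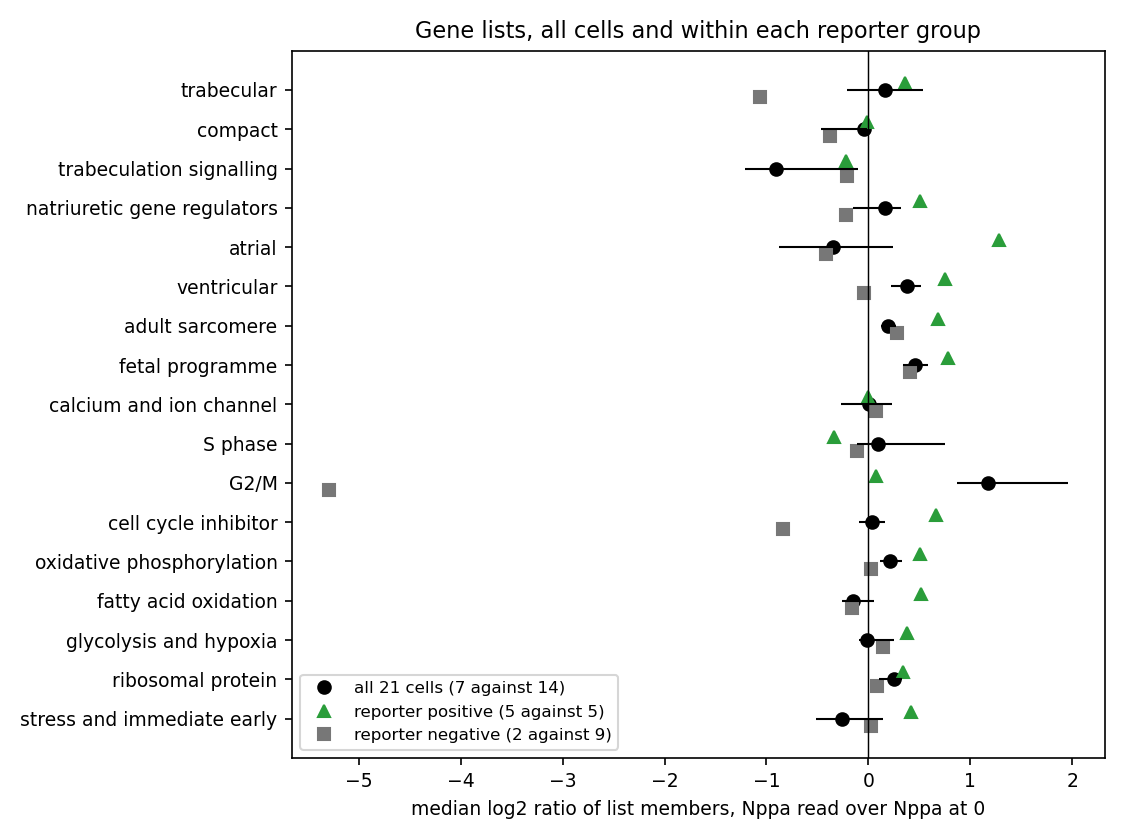
Median log2 ratio of summed CPM, Nppa-read over cells at 0, of each gene list over all 21 cells (black, with the range as each cell is left out), reporter positive cells (green) and reporter negative cells (grey). Trabecular and compact medians over all cells are 0.17 and -0.05, and G2/M stands at 1.18 over all cells but 0.07 among positive cells.

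Genes of mitosis stood higher over all cells, but not when reporter positive cells were compared among themselves. In Nppa-read cells 26 of 44 genes of G2/M stood at least 2-fold higher and 1 lower, beside 19.3% and 25.9% of all genes. The list median was 1.18. Among positive cells 4 were higher, 3 lower, and the median was 0.07. Among negative cells 4 of 36 were higher and 26 lower, with a median of -5.29, and those medians set 2 cells against 9. The summed list was at 525 and 926 CPM in negative cells 9 and 4. The 9 other negative cells ran from 223 CPM to 5600 CPM, the latter in negative cell 8, so the cells overlapped. Cdk1, the kinase of mitotic entry, was at 1651 against 517 CPM over all cells (1.68), 0.57 among positive and -3.91 among negative cells. Smc4, a condensin subunit gene, was at 0.93 over all cells and -0.19 among positive cells, and Kif2c, a spindle motor gene, was at 2.67 and 1.17. Tubb2c, a tubulin gene also called Tubb4b, was at 2.65, with 1.71 and 1.42 within the reporter groups.

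The median of replication genes moved with 1 cell and with the scale. In the S phase list 7 of 32 stood at least 2-fold higher and 5 lower, beside 19.3% and 25.9% of all genes. The list median was 0.10, with -0.33 among positive and -0.11 among negative cells. The median was 0.75 without negative cell 8 and 1.56 with mean log2(CPM + 1). The summed list stood at 2732 to 7103 CPM (median 5928) in Nppa-read cells and 482 to 22840 CPM (median 2187) in cells at 0, so the latter held both the lowest and the highest cell. Pcna, the sliding clamp gene, was at 1197 against 1615 CPM (-0.43) and Nasp, a histone chaperone gene, at 726 against 552 CPM (0.39). Chaf1a, a chromatin assembly gene, was at -3.97 but at 0.36 without negative cell 8. Cdc45, a replicative helicase factor gene, was at 2.23.

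Genes with the largest differences, in the order of the weakest ratio that leaving out any cell gave, were mostly carried by a few cells. Among them, Vamp5, a muscle vesicle protein gene, was at 4.04, 18.6, 29.6, 36.4 and 52.1 CPM in positive cells 2, 1, 7, 8 and 9 and at 42.6 and 48.4 CPM in negative cells 9 and 4. Of the 14 cells at 0 of Nppa, 11 had no Vamp5 read, and the highest reached 4.66 CPM. Only positive cell 2 overlapped the others. Its log2 ratio was 6.06, from 5.84 to 7.71 as each cell was left out, 10.08 among positive and 5.87 among negative cells.

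Svip (11.12) was carried by positive cell 8 at 310 CPM, and the angiopoietin receptor gene Tek (8.41) by negative cell 4 at 174 CPM and positive cell 8 at 99.3 CPM. Cdh5, which defines endothelium, was at most 0.0956 CPM in any of the 21 cells. Prdm6 (7.30), Tube1 (6.17), Zfp53 (5.73), Klhl12 (5.72), Arhgef3 (4.87), Ammecr1l (4.55), Nlrp10 (4.37) and Fzd4 (4.20), a Wnt receptor gene, were the other leading higher genes described. Each had a level of at least 20 CPM in the Nppa-read sum.

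The leading lower genes described were Plcl1 (-4.45), the glypican gene Gpc6 (-6.20), Rgl1 (-3.89), Traf5 (-3.88), Cgrrf1 (-3.36), Napepld (-3.36), Fgf9 (-3.43), the heme oxygenase gene Hmox2 (-2.93), the nuclear import receptor gene Tnpo1 (-2.76) and ORF19 (-3.50). Gpc6 was carried by negative cell 5, the cell with fibroblast transcripts, at 436 CPM, with a median of 0.527 CPM over cells at 0. Plcl1 was carried by negative cells 5 and 8 at 300 and 155 CPM, with a median of 2.63 CPM over cells at 0. Without negative cell 5 the ratios of Gpc6 and Plcl1 were -3.29 and -3.38. Fgf9, an epicardial and endocardial growth factor of the compact wall, was at 3.64 against 39.1 CPM, with up to 213 CPM in a cell at 0. Plcl1, Traf5 and Tnpo1 were not lower among positive cells, at 0.02, 0.51 and 1.34.

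Ranking by likeness to Nppa gave a further set. Spearman's rho with Nppa was computed over the 21 cells for the 5221 genes of at least 20 CPM on average. Of these cells 14 are tied at 0 for Nppa, and the median rho was 0.11. All genes share the libraries and their gene detection, and no p is attached. Among the highest were Gramd1b (0.73), Cdc7 (0.71), Snd1 (0.70), Mdfic (0.66), Lypd6b and Kdelc1 (0.65 each) and Usp47 (0.64). The lowest were Rpl39 (-0.67), Nme7 (-0.62), Csnk1a1 (-0.61), Pomp (-0.60), Yme1l1 (-0.58), Rab39 (-0.55), Rps27l (-0.54) and Ubr3 (-0.54). Neither Nppb nor any other listed trabecular or compact gene was among the 8 ranked highest or the 8 ranked lowest. Listed genes of lower level, such as Bmp10 and Gja5, were not ranked. With so few of the 5221 genes named, this absence says little about either list.

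Cdc7, a kinase that fires replication origins, was at 27.7 to 167 CPM in the 7 Nppa-read cells, and 8 of the 14 others had no read, but 1 of those others reached 395 CPM, so the log2 ratio was only 0.84. Usp47, a ubiquitin protease gene, was at 163 to 702 CPM against 1.71 to 338 CPM (1.57). Csnk1a1, the casein kinase of the Wnt pathway, was at 438 to 962 CPM against 527 to 2672 CPM (-0.96). Rpl39, a ribosomal protein gene whose counts may be shared with pseudogenes, was at 1940 to 2510 CPM against 1302 to 4197 CPM (-0.27).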

How the data were processed

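RNA of single ventricular cardiomyocytes was amplified and sequenced, per the labels' protocols. The submitters' processing notes name CASAVA 1.8.2, STAR 2.4.0j, HTSeq 0.6.1p1 and build mm10. The sources used here give neither strand settings nor the treatment of duplicates. The table deposited by the authors holds raw counts for 20728 genes in 33 cells, and no column was left unused.

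For each set, counts of its cells were added up and divided by the summed total (CPM of the sum). Genes needed at least 1 CPM over all 21 E14.5 cells. Levels have exact Poisson intervals and ratios conditional binomial intervals, both at 95%. A set at 0 was given a floor of 3 counts. With 1 cell per sample and no animal named, the planned 7 highest against 7 lowest cells became 7 against 14, since the 14 lowest cells are tied. The gene lists, 26 with 473 genes (468 found, 6 by another symbol), and the cells were chosen with earlier results of these data known.

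Named genes were the 12 leading in each direction (at least 20 CPM in the higher set, a read in 6 of 7 or 12 of 14 of its cells), the 8 of highest and lowest rho, and up to 4 per described list, the most abundant and the most different measured members. Other list members are named because they define the lists, or were named after their values were seen (among them Erbb2, Has2, Npr1, Npr3, Gata4, Hand2, Nkx2-5, Mef2c, Mef2d, Hdac5, Myocd, Nr2f1, Myl7 and Igf2bp3). A few genes taken by these rules are not reported here, but stay in all counts and medians. Gene positions are those of GENCODE vM21 (GRCm38). The alternatives were other scalings, other filters, thinning, leaving out each cell, and subsets of cells. The calculation was tested on simulated data with 100 genes changed 2-fold and 100 changed 4-fold among 10755: direction was found for 100% of both, and intervals held the true value for 96% and 94%. The simulated cells of a set differed by library total and Poisson counting error only. Those figures therefore do not show how the ratios hold under the differences between cells seen here. Python 3.11.15, numpy 2.4.6, pandas 2.3.3, scipy 1.17.1, matplotlib 3.10.9, R 4.3.3, edgeR 4.0.16 (TMM factors) and DESeq2 1.42.0 (size factors) were used; the last 2 gave scaling factors only.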

Additional observations from a re-analysis of the deposited data

Results flagged for a closer look

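The summed level of the natriuretic peptide list in positive cell 8, the lowest of the 7 Nppa-read cells, was 71.8 CPM, and the nearest other Nppa-read cell stood at 405 CPM. On the log2 scale the gap took 0.633 of the range of the set, above Dixon's 95% critical value for 7 cells. It was the only such gap among 28 quantities examined, and chance marks about 1 in 20 groups. In that cell Prkg1 was at 42.9 CPM and Ide at 2.29 CPM, the lowest of the Nppa-read cells for both.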

How the results depend on the processing

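The number of genes at least 2-fold higher was 3242 with a minimum of 10 counts, 993 with a minimum of 10 CPM and 3148 among positive cells, and the number lower was 396 with mean log2(CPM + 1) and 1475 with the minimum of 10 CPM. Genes without overlap, higher and lower, numbered 92 and 20 among positive cells, 221 and 16 among negative cells, 185 and 11 with titles 1 to 10, and 67 and 10 with titles 21 to 30, all with fewer cells. Those without overlap and higher numbered 2 with the 5 highest cells against the 14, 1 without negative cells 5 and 8, 10 with the 7 deepest of the tied cells and 5 with the 4 cells above 10 CPM. The trabecular median was -1.06 among negative cells. The compact median was 0.40 with titles 1 to 10, -0.49 with the 5 highest cells and -0.52 with the 4 cells above 10 CPM. The G2/M median turned to -5.29 among negative cells and -0.82 with titles 1 to 10.

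With each cell left out, genes 2-fold higher ran from 1909 to 2236, lower from 2601 to 3095, those without overlap from 0 to 2 higher and 0 to 0 lower, and the trabecular, compact and G2/M medians from -0.21 to 0.54, -0.47 to -0.014 and 0.87 to 1.96.

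Other directions turned as follows, the cause not tested. Mean log2(CPM + 1) gave Etv1 0.91, Corin 1.87, Ckmt2 0.85 and Lin28b 0.17. Positive cells gave Plcl1 0.018, Traf5 0.51, Tnpo1 1.34, Etv1 1.05, Corin 2.85, Ckmt2 2.59 and Lin28b 1.55. Negative cells gave the endothelial list -2.30, Lypd6b -8.51, Mb -0.60, Cdk1 -3.91 and Cdc45 -0.45. Titles 1 to 10 gave Tube1 -1.36, Traf5 0.83, Cdkn1c 0.30, Corin 1.73, Rest 1.84, Kcnd2 0.13, Mb -0.58, Ckmt2 2.78, Lin28b 2.61, Cdk1 -1.17 and Kif2c -1.68. Titles 21 to 30 gave Notch2 0.44 and the fibroblast list 0.0028. Without negative cells 5 and 8 the fibroblast list was 0.20 and Chaf1a 0.21. The endothelial list was -0.84 with the 5 highest cells and -2.52 with the 4 above 10 CPM, and as cells were left out it ran from -2.22 to 2.30, below 0 without positive cell 1, positive cell 4, negative cell 8 or negative cell 9. With each cell left out Mb ran from -0.19 to 1.88, Chaf1a from -5.25 to 0.36, Corin from -2.53 to 0.66 and Ckmt2 from -2.88 to 0.77.

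The 5 highest against the 14, the 7 deepest, the 4 cells above 10 CPM and leaving out negative cell 5 alone were chosen after seeing the data. A comparison of 10 highest with 10 lowest cells could not be run, since ranks 8 to 10 are tied at 0. No paired analysis was possible because cell numbers are in accession order and the sets cross the reporter groups.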

Other observations

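Several lists of other cell types were high in some cells of both sets, and the broad mural list held reads in every cell, though its 3 markers did not. Macrophage genes summed to 248 CPM in positive cell 8, an Nppa-read cell, and to 232 CPM in negative cell 6, with Csf1r at 0 in all 21 cells. The 248 CPM came from Cd68, Adgre1 or both, and from no other listed member. Epicardial genes reached 672 CPM in Nppa-read cells and 1318 CPM in cells at 0, with Upk3b at 0 in all. Mural genes summed to 402 to 1731 CPM in Nppa-read cells and 244 to 2099 CPM in cells at 0, with Rgs5 at 0 in all. The 3 mural markers (Pdgfrb, Rgs5 and Cspg4) alone summed to 7.20 to 71.1 CPM and 0 to 123 CPM. Endothelial and endocardial genes reached 180 CPM against 205 CPM, the former in negative cell 4, where Tek alone held 174 CPM. Of 16 fibroblast genes 13 were measured, 9 at least 2-fold lower in Nppa-read cells, beside 25.9% of all genes. The list median was -8.10, and it was -0.33 without negative cell 5. Postn, a matrix gene of fibroblasts, reached 45688 CPM in that cell and at most 5.49 CPM in any Nppa-read cell. Ribosomal protein genes, of which 32 were measured, had a median of 0.25. Of these 0 were at least 2-fold higher and 3 lower, beside 19.3% and 25.9% of all genes.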
